A study of Mus musculus with 59 samples.

Results

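The *Ezh2* knockout arm of the study held 6 single epiblasts dissected at E6.25, 3 knockouts and 3 controls, out of 59 samples in the whole series and 14 RNA-seq samples over both of its crosses. The members were chosen by genotype alone, as the RNA-seq libraries of the *Ezh2* cross labelled Ezh-/- (knockouts 1 to 3) and Ezh+/+ (controls 1 to 3), and no further sample entered the comparison. By the study's methods the embryos came from heterozygous crosses and 3 litters, so the allele was carried by every cell of a knockout, and its controls could be *Ezh2*+/+ or *Ezh2*+/-, whereas the labels give only the former. Which control and knockout shared a litter is not given in the sources used here. All 6 were on a mixed background and untreated, and 750 pg of RNA from each epiblast was amplified before sequencing. Each epiblast is 1 embryo and counts as 1 replicate, so p-values measure the spread between these embryos.

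EZH2 is the main catalytic subunit of Polycomb repressive complex 2 (PRC2), which places methyl groups on lysine 27 of histone H3 (H3K27me3). With EED and SUZ12 it forms the core of the complex, and accessory subunits such as JARID2, MTF2 and PHF19 help to bring it to chromatin. The mark is read by the CBX subunits of Polycomb repressive complex 1 (PRC1), and its best known targets are CpG-rich promoters of silent developmental regulators, including the *Hox* clusters. The epiblast at this stage is the cup of pluripotent cells from which the germ layers and germ cells arise at gastrulation, and it lies against visceral endoderm and extraembryonic ectoderm.

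The authors deposited raw read counts for each transcript, and for each gene the transcript with the highest mean count over the 6 epiblasts was used. The total count per epiblast over all transcripts was 30161171 to 37500157, and over 1 transcript per gene 12495547 to 15160096. Levels are given in CPM, counts relative to library sizes that were scaled by the TMM method of edgeR. All 8 core pluripotency genes had at least 10 counts in every epiblast, as had all 14 genes of the formative and primed epiblast. Epiblast genes were thus detected in all 6. Such counts do not measure purity, since 8 of 10 parietal endoderm and 7 of 22 visceral endoderm markers reached them too. Visceral endoderm transcripts set 2 epiblasts apart. The 20 tested visceral endoderm markers summed to 3590 CPM in control 2 and 7704 CPM in knockout 1, against 129.7 to 175 CPM in the remaining epiblasts. The 2 epiblasts are of opposite genotype, and none of the 20 markers had an unadjusted p under 0.05. The 5 tested Y-linked genes summed to 1.36 and 1.44 CPM in controls 1 and 3, but to 178 CPM in control 2 and 149 to 190.2 CPM in the knockouts. The groups therefore differ in how many epiblasts express Y-linked genes, 1 of 3 controls and 3 of 3 knockouts. The parietal endoderm markers summed to 524 to 779 CPM in controls and 514 to 848 CPM in knockouts. The markers of decidua and maternal blood summed to 241, 35.4 and 63.1 CPM in controls 1 to 3 and to 166, 140 and 53.9 CPM in knockouts 1 to 3. They were thus highest in control 1, and the groups overlapped. Haemoglobin transcripts were listed in control 1, at 5 to 27 counts a gene, and otherwise at no more than 1 count in any epiblast.

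**Figure D1:**
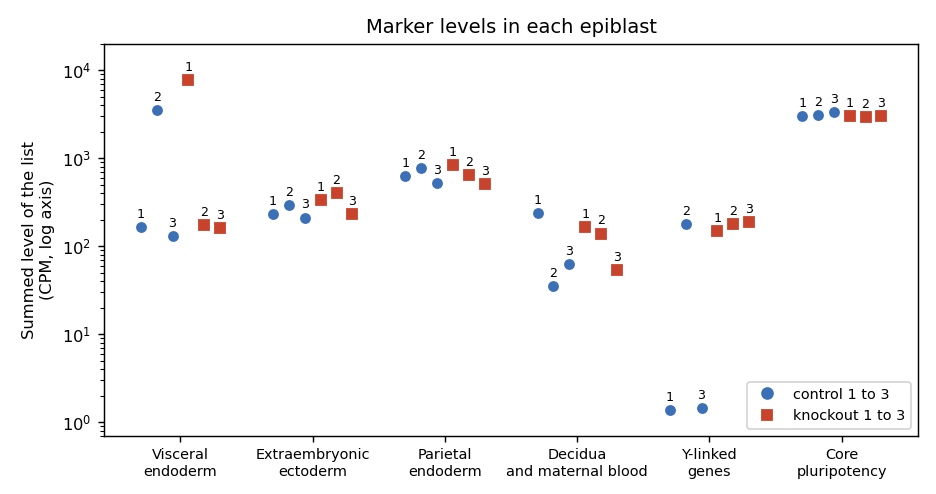
Summed level of the tested members of 6 marker lists in each epiblast, in CPM on a log axis, with circles for controls, squares for knockouts and the replicate number above each point. Control 2 and knockout 1 stand above the other epiblasts in visceral endoderm markers, and controls 1 and 3 lie near 1 CPM for Y-linked genes.

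*Ezh2* itself was lower in every knockout. The chosen transcript, ENSMUST00000081721 on the minus strand of chromosome 6 (GRCm38, from 47530139 to 47595030), stood at 132, 166 and 276 CPM over the controls, in the order of their numbers, and at 28.8, 29.4 and 39.98 CPM over the knockouts. No knockout overlapped the controls, and the highest knockout lay far below the lowest control. The log2 fold change was −2.54 (standard error 0.27), with an unadjusted p of 5.56e-06 and an adjusted p of 0.0779 from edgeR's quasi-likelihood test, which was the lowest adjusted p of any gene. An exact permutation test of the CPM values, two-sided, gave p = 0.1, the smallest p that 3 epiblasts against 3 can reach. The call depends on the method. The adjusted p was 3.62e-22 with DESeq2, and with edgeR it passed 0.05 when control 1 or control 2 was left out (0.0325 and 0.0225) but not when control 3 (0.0566) or a knockout was (0.151 to 0.682).

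The remaining *Ezh2* counts were not spread evenly along the gene. All 12 listed transcripts were lower in each knockout than in any control, and in 10 of them the knockout mean was 13.1% to 26.8% of the control mean relative to library size. Below that range was the 6-exon transcript ENSMUST00000169889 (chromosome 6, from 47545783 to 47554214), annotated as a target of nonsense-mediated decay, with 625, 825 and 1607 counts in controls and 19, 58 and 46 counts in knockouts, 3.99% of the control mean. Above it was the 4-exon transcript ENSMUST00000170327 (from 47556030 to 47578010), nearer to the start of the gene, with 455, 556 and 540 counts in controls and 224, 208 and 275 counts in knockouts, 46.2% of the control mean. These transcripts share reads with the longer ones, so their counts are not independent of them. Which exons the allele removes is not given in the sources used here, and its relation to these positions was not tested.

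**Figure D2:**
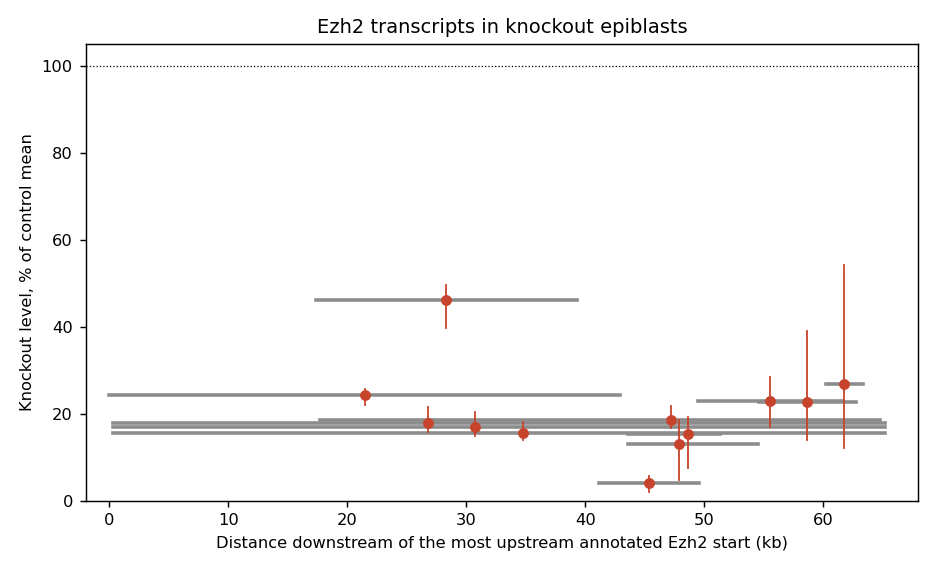
Each of the 12 listed Ezh2 transcripts drawn as a grey line from its start to its end, in kb downstream of the most upstream annotated start, at the height of its knockout level in percent of the control mean (counts relative to library size, 1 value per transcript). Points mark the mean of 3 knockouts and red lines their lowest and highest value, and the transcript at 3.99% lies downstream of the one at 46.2%.

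Outside *Ezh2*, differences beyond a log2 fold change of 1.4 lay mainly in genes that were little expressed in control epiblasts. Many more of these genes were higher than lower in knockouts. After edgeR's filter on low counts 14014 genes were tested. A gene was called where its adjusted p was under 0.05 and its log2 fold change passed 1.4 in either direction, the fold limit of the study. By that rule 0 genes were higher and 0 lower (0% in each direction), although 1117 genes had an unadjusted p under 0.05. DESeq2, on the same counts, called 46 genes higher and 2 lower, *Ezh2* and *Gm10653*, and 47 of these 48 genes had groups that did not overlap. At an unadjusted p under 0.05, with the same fold limit, edgeR gave 234 genes higher (1.67% of those tested) and 41 lower (0.293%). With no fold limit the unadjusted counts were 608 higher (4.34%) and 509 lower (3.63%), so that higher genes outnumbered lower ones mainly among the large changes. Every knockout lay above every control, with a log2 fold change beyond 1.4, in 253 genes (1.81%), and below in 46 genes (0.328%). At any fold the counts without overlap were 1022 above and 1038 below. The median log2 fold change of all tested genes was 0.01, and 51.5% of genes were above 0. Counts at an unadjusted p are not corrected for the number of genes. The shares of 1.67% higher and 0.293% lower are the background of every list below. In what follows, a gene counted as higher or lower passed the unadjusted p and the fold limit, a gene said to pass the unadjusted test had an unadjusted p under 0.05 at a smaller change, and each p printed beside a gene is adjusted over all tested genes.

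The genes that passed both the unadjusted p and the fold limit were weakly expressed. The 234 higher genes had a median of 0.985 CPM over controls and 4.36 CPM over knockouts, and the 41 lower genes 2.88 and 0.744 CPM. Scaled to transcript length, their median levels were 0.855 and 0.751 CPM per kb, against 6.08 CPM per kb for all tested genes. When genes were divided into 10 equal classes by their level, classes 1 to 4, the lowest, held 216 of the 234 higher genes (92.3%) and 37 of the 41 lower genes, whereas classes 9 and 10 held 0 and 1. The median log2 fold change moved with the level too, from 0.30 in class 1 (0.0283 to 0.638 CPM per kb) to −0.08 in class 10, with values below 0 from class 7 up. In class 10 the counts at an unadjusted p with no fold limit were 143 lower and 18 higher, and in class 1 they were 14 and 89. The spread of log2 fold changes was also wider at low levels, with a standard deviation over genes of 1.03 in class 1 and 0.199 in class 10. In 138 of the 234 higher genes some epiblast had under 10 counts, where counting error is large.

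**Figure D3:**
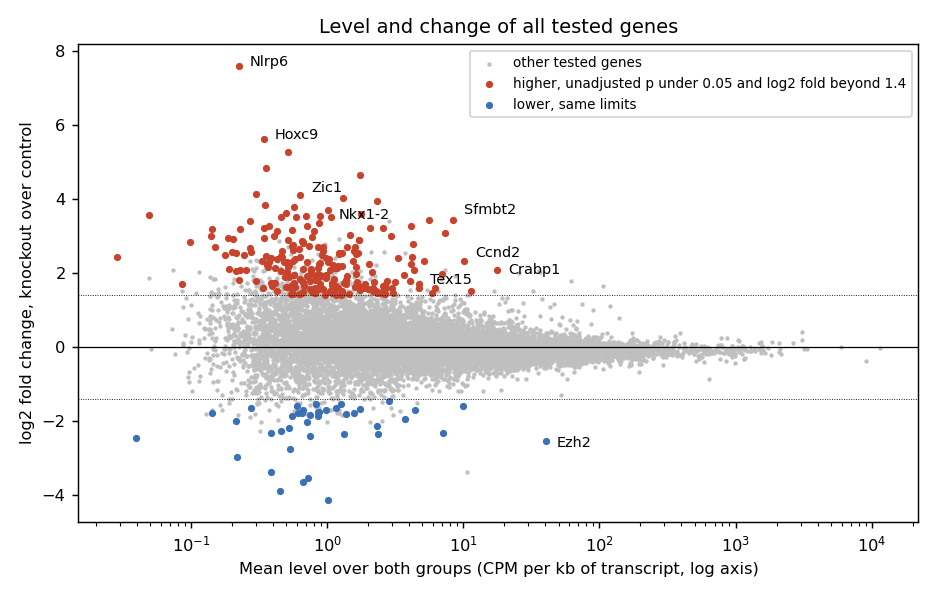
log2 fold change of each tested gene against its mean level in CPM per kb of transcript (log axis), with genes past the unadjusted p and the fold limit in red (234 higher) and blue (41 lower). Nearly all coloured genes lie under 10 CPM per kb, and Ezh2 is the lower gene with the highest level.

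These counts were repeated with the epiblasts that stood apart taken into account. With the summed visceral endoderm level as a covariate 258 genes were higher, 208 of them among the 234. With control 2 and knockout 1 left out 259 were higher, 120 of them among the 234, on 4 epiblasts. With Y-linked expression as a covariate 308 genes were higher and 94 of them were among the 234, in a fit that sets the knockouts against control 2, the one control with Y-linked expression. Leaving out control 1 raised the count of higher genes to 522 and leaving out control 2 raised it to 392. With 1 epiblast left out the number of higher members moved by over 1.5 times, or to or from 0, in 27 of 37 gene lists.

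The study's own rule, rebuilt here with edgeR, compares each knockout with all controls, combines the p-values by Fisher's method, and asks for a combined unadjusted p under 0.05, a change past the same fold limit in each of the 3 comparisons and a level above 2 CPM per kb of transcript in every epiblast of the higher group. It gave 19 genes higher (0.136%) and 4 lower (0.0285%). The higher genes included *AU022751*, *C1ql1*, *Ccnd2*, *Crabp1*, *Grm6*, *H2-Q5*, *Hint3*, *Lefty2*, *Mael*, *Nkx1-2*, *Plet1*, *Ppp2r2c*, *Raet1e*, *Sfmbt2*, *Snx25*, *Spa17*, *Tesc* and *Tex15*. The lower genes were *Ezh2*, *Gm10653*, *Pfkfb3* and a short transcript, ENSMUST00000148850, under the symbol *Arhgap26*. All 19 were among the 234, and DESeq2 called 14 of them. *Pfkfb3*, which makes the main activator of the glycolytic enzyme phosphofructokinase, overlapped between groups, with 122, 65.4 and 24.2 CPM in controls and 23.2, 24.8 and 22.4 CPM in knockouts. Control 1 was far above the other controls there. A normalised count of at least 5 in place of the level above 2 CPM per kb raised the counts to 107 higher and 18 lower.

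The 12 largest increases among genes without overlap and with at least 1 CPM over the knockouts were in *Nlrp6*, *Hoxc9*, *Edn3*, *Nlrp9b*, *Dmrt3*, *Zic1*, *Alox15*, *Car7*, *Pdgfrb*, *Klrg2*, *Tbx15* and *AU015836*. 4 of them encode transcription factors of patterning or sex determination (*Hoxc9*, *Dmrt3*, *Zic1* and *Tbx15*). *Nlrp6*, an innate immune sensor of the gut epithelium, had 0 counts in all 3 controls and 41, 13 and 16 counts in the knockouts, at least 24.8-fold higher against a floor of 3 counts over the control group. *Edn3*, the endothelin ligand of melanocyte and enteric neuron precursors, had 0.0713, 0 and 0.144 CPM in controls and 1.18, 4.61 and 3.54 CPM in knockouts. *Alox15*, a lipoxygenase of fatty acids, had 0.927, 0 and 0.144 CPM and 8.71, 3.797 and 5.38 CPM. In each of these genes the lowest knockout lay above every control. *Car7*, a carbonic anhydrase, depended on 1 epiblast for its size, with 0.785, 0.364 and 0.144 CPM in controls and 15.7, 1.08 and 3.48 CPM in knockouts. *Pdgfrb*, the receptor of platelet-derived growth factor B, was more even, at 0.642, 0 and 0.0722 CPM and 4.47, 3.19 and 2.95 CPM, and DESeq2 called all 5 of these genes (adjusted p = 0.0179, 0.00703, 0.00451, 0.0084 and 0.0376, in the order named).

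Proximal promoters were read for these 12 genes from RefSeq (GRCm38.p6), from 250 bases before to 50 after the start, since CpG density is the sequence feature most tied to PRC2. 7 of the 12 had a RefSeq start within 1 kb of the transcript used. The pair with the most and the pair with the fewest CG dinucleotides are shown, 5′ to 3′ on the strand of the gene, with each CG in capitals.
Zic1, chr9:91365719-91366018, minus strand: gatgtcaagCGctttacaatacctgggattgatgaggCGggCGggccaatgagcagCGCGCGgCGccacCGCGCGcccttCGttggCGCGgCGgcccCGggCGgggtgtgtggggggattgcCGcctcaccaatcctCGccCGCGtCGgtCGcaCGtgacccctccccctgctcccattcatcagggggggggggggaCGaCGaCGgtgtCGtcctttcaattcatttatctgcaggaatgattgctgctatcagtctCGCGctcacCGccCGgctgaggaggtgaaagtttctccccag
Car7, chr8:104540557-104540856, plus strand: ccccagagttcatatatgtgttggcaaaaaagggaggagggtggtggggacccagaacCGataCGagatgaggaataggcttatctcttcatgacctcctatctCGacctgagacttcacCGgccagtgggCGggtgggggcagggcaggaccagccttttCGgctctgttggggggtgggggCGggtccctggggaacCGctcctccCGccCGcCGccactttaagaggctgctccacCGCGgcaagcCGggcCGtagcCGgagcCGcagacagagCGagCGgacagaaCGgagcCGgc
Nlrp6, chr7:140920652-140920951, plus strand: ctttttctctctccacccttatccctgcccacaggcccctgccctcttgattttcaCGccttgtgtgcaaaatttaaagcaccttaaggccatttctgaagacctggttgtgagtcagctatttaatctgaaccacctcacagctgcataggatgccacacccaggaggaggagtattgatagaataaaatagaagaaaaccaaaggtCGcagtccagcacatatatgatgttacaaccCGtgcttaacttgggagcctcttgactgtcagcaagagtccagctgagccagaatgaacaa
Nlrp9b, chr7:20007773-20008072, plus strand: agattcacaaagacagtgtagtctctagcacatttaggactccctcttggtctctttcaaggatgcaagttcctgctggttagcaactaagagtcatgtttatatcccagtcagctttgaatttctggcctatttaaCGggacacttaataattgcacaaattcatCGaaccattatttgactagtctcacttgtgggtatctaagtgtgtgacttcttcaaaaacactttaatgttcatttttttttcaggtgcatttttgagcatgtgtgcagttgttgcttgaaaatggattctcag

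The promoter of *Zic1* held 31 CG dinucleotides and that of *Car7* 21, whereas those of *Nlrp6* and *Nlrp9b* held 3 and 2. The other 3 were between, *Dmrt3* with 15, *Klrg2* with 12 and *Edn3* with 10. Over all 32851 promoters in the table the median was 7, and 26.5% held 20 or more. The largest increases thus came from promoters at both ends of the range. A comparison over all tested genes was void, because only 72.3% of them had such a promoter.

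Among the Polycomb genes, the largest increases were in a PRC2 accessory subunit and a PRC1 subunit. Of 13 PRC2 genes, all tested, 1 was higher and 1, *Ezh2*, was lower, with a median log2 fold change of −0.09, against 0.01 over all tested genes. *Phf19*, which binds H3K36 methylation and helps PRC2 onto chromatin, had 0.143, 1.02 and 0.0722 CPM in controls and 7.46, 3.19 and 3.87 CPM in knockouts. The lowest knockout was above the highest control by over 3-fold, and the log2 fold change was 3.53 (SE 0.94, adjusted p = 0.445 with edgeR and 0.0224 with DESeq2). Its other 3 listed isoforms summed to a mean of 0.45 CPM in controls and 5.56 CPM in knockouts, but isoforms share reads, so this sum is not independent. *Ezh1*, the paralogue that can also methylate H3K27, had 23.9, 24.7 and 24.0 CPM in controls and 24.1, 36.8 and 26.5 CPM in knockouts, with overlap between the groups (log2 fold change 0.27, adjusted p = 0.811). *Eed*, a core subunit, *Rbbp4*, a histone chaperone, and *Jarid2*, measured on a retained-intron transcript, passed the unadjusted test with small negative log2 fold changes of −0.47, −0.46 and −0.34, each with no overlap, and *Suz12*, the third core subunit, was at −0.21 (adjusted p = 0.696).

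Of 23 PRC1 genes, all tested, *Bmi1* was the one higher and none was lower, with a list median of 0.08, and without control 1 the number higher was 2. *Bmi1*, the PCGF subunit of a canonical PRC1 and a repressor of the *Ink4a* locus, had 16.6, 8.16 and 8.23 CPM in controls and 40.7, 31.5 and 27.7 CPM in knockouts (log2 fold change 1.60, SE 0.33, adjusted p = 0.36 with edgeR and 0.000711 with DESeq2). All 3 knockouts lay above the highest control. Within the fold limit 2 more genes passed the unadjusted test, of which *Ring1*, an E3 ligase of histone H2A measured on a retained-intron transcript, was at 0.78 (adjusted p = 0.507), and *Kdm2b*, which takes PRC1 to CpG islands, at −0.44 (adjusted p = 0.559). 2 of the 3 H3K27 demethylase genes passed the unadjusted test on the lower side without overlap, *Kdm6a* at −0.57 (adjusted p = 0.458) and *Kdm6b* at −0.42 (adjusted p = 0.5). The other listed isoform of *Kdm6b* was not lower, at a mean of 11.05 CPM in controls and 11.38 CPM in knockouts. *Kdm6a* is X-linked and escapes X inactivation, and its levels of 201, 133 and 215 CPM in controls and 126, 125 and 119.5 CPM in knockouts put control 2, with Y-linked expression, close to the knockouts.

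**Figure D4:**
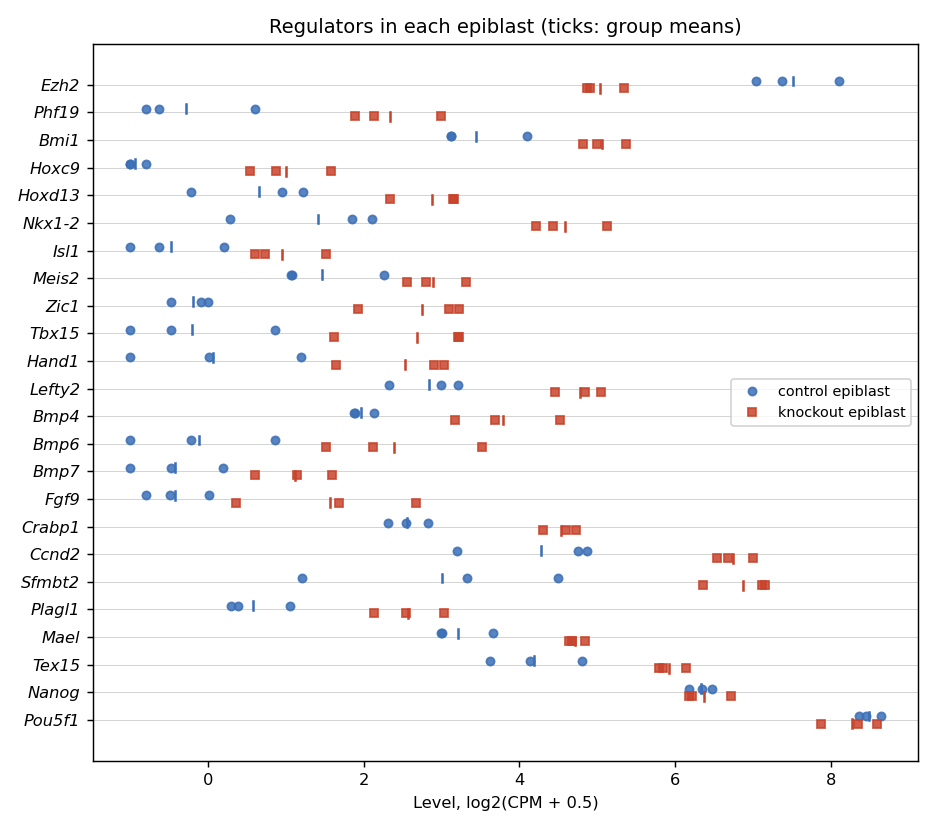
Levels of named genes in each epiblast as log2(CPM + 0.5), with circles for controls, squares for knockouts and ticks for the group means. The knockouts lie right of every control in all rows between Phf19 and Tex15, left of every control for Ezh2, and overlap the controls for Nanog and Pou5f1.

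More of the developmental transcription factors were higher than lower, as over all tested genes (234 and 41), and most members of these lists were too weakly expressed in any epiblast to be tested. Of 208 regulators on 3 lists, 195 were in the files and 81 passed the filter. 9 of the 81 (11.1%) were higher, against 1.67% of all tested genes, and 0 were lower, against 0.293%, while 13 were higher and 2 lower, *Sox11* and *Id3*, with no fold limit. By level, 40 of the 81 were in classes 1 and 2, where 5 of them were higher, against 5.85% of all tested genes there (6.13% in class 1 and 5.57% in class 2), and of the 41 in classes 3 to 10 4 were higher, against 0.624%. DESeq2 gave 9 higher and 1 lower, *Hhex*, at an unadjusted p and the fold limit. Without the filter 25 of 195 were higher and 2 lower. The median log2 fold change of the 81 was 0.53. Some members passed the filter only through the knockouts, so the median and counts are a description of the tested members. Leaving out 1 epiblast gave 30 of 98 higher without control 1, 24 of 99 without control 2, 14 of 103 without control 3 and 14 of 92 without knockout 1. With control 2 and knockout 1 left out 18 of 83 were higher and 1 lower, and with Y-linked expression as a covariate 11 of 81 were higher and 2 lower.

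Of 39 *Hox* genes, which give cells their position along the body axes, 33 were in the files, 9 passed the filter and 2 were higher (22.2%). Over all tested genes 1.67% were higher, and in level classes 1 and 2 5.85%. *Hoxc9* passed the filter only through the knockouts, so the count describes the tested members alone. *Hoxd13*, the most posterior gene of its cluster and a patterning gene of limb and genitalia, had 1.43, 1.82 and 0.361 CPM in controls and 8.32, 4.54 and 8.47 CPM in knockouts, with a log2 fold change of 2.55 (SE 0.64, adjusted p = 0.445 with edgeR and 0.0222 with DESeq2). *Hoxc9*, of the lower trunk, had 0, 0 and 1 counts in controls and 17, 14 and 38 counts in knockouts. Its other listed isoform was near 0, at a mean of 0.024 CPM in controls and 0.022 CPM in knockouts. The other 7 tested members overlapped between the groups, from −1.72 in *Hoxa11* to 1.07 in *Hoxd8*. *Hoxc10*, next to *Hoxc9*, was below the filter, with 1, 0 and 0 counts in controls and 26, 2 and 0 counts in knockouts, so its counts came almost wholly from knockout 1. Without control 1 the number of higher *Hox* genes was 6. Summed over the 9 tested genes the *Hox* level was highest in control 1, at 75.1 CPM, against 3.64 and 6.13 CPM in the other controls and 13.4 to 37.3 CPM in knockouts. That control also had the highest sum of decidua and maternal blood markers, and the relation between the 2 sums was not tested.

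Of 79 other homeobox and paired-box genes 74 were in the files, 23 were tested and 4 were higher. *Nkx1-2*, a marker of the caudal epiblast and early neural plate, had 0.714, 3.79 and 3.10 CPM in controls and 18.1, 21.1 and 34.3 CPM in knockouts, a log2 fold change of 3.27 (SE 0.55). It also passed the per-embryo rule, and DESeq2 gave it an adjusted p of 7.26e-08. *Isl1*, of motor neurons and cardiac progenitors, was at a low level, with 0.143, 0.656 and 0 CPM and 1.02, 1.15 and 2.36 CPM (adjusted p = 0.624), and *Meis2*, a cofactor of Hox proteins, was at 4.28, 1.60 and 1.59 CPM and 9.42, 6.44 and 5.38 CPM (adjusted p = 0.509). In all 4 the groups did not overlap, and the number of higher genes was 12 without control 1 and 10 without control 2. At the other end *Hhex*, a gene of the anterior visceral endoderm, had 35, 266 and 1 counts in controls and 35, 22 and 19 counts in knockouts, so its log2 fold change of −1.999 (adjusted p = 0.723) came from control 2. Knockout 1, with the highest sum of visceral endoderm markers, had 35 counts of *Hhex*, and the relation to these markers was not tested.

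Of 90 other developmental factors 88 were in the files, 49 were tested and 3 were higher, *Zic1*, *Tbx15* and *Hand1*. *Zic1*, of the neural plate border and dorsal neural tube, had 0.499, 0.437 and 0.216 CPM in controls and 3.30, 8.81 and 8.07 CPM in knockouts (log2 fold change 4.10, SE 0.65, adjusted p = 0.246 with edgeR and 2.01e-05 with DESeq2). Its paralogues *Zic2* and *Zic5*, which the epiblast normally expresses, were at −0.18 and 0.03. *Tbx15*, a T-box factor of limb and craniofacial mesenchyme, had 0, 1.31 and 0.216 CPM and 8.87, 2.58 and 8.73 CPM. *Hand1*, of heart, lateral mesoderm and trophoblast giant cells, had 1.78, 0 and 0.505 CPM and 7.69, 6.98 and 2.63 CPM (adjusted p = 0.52). *Twist1*, of neural crest and mesoderm, did not overlap between groups at a log2 fold change of 1.86 but did not pass the unadjusted test (adjusted p = 0.695). Of these factors 12 were higher without control 1 or control 2, 7 without knockout 1 and 6 without control 3. Regulators that the filter removed could still differ: *Pdx1*, of pancreas and duodenum, had 0 counts in all controls and 44, 10 and 55 counts in knockouts, at least 37-fold higher by the same floor.

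Of 18 Nodal pathway genes 17 were tested and 1 was higher, with a list median of −0.03. *Lefty2*, a secreted inhibitor and direct target of Nodal signalling, had 7.42, 4.52 and 8.73 CPM in controls and 21.4, 32.5 and 28.1 CPM in knockouts. Every knockout had over 2 times the level of the highest control, and the log2 fold change was 1.99 (SE 0.32, adjusted p = 0.246 with edgeR and 5.52e-06 with DESeq2). Within the fold limit 3 more genes passed the unadjusted test, 2 of them on the higher side. *Pcsk6*, a convertase that can cleave the Nodal precursor, was one of these, at 0.75 (adjusted p = 0.56). The ligand and its other inhibitor had smaller differences: *Nodal* was at 0.21 (adjusted p = 0.923) and *Lefty1* at −0.02 (adjusted p = 0.998). *Tdgf1*, the co-receptor, was at 0.05. *Smad2*, a transducer of the signal, was the one that passed the unadjusted test on the lower side, at −0.40 (adjusted p = 0.507). *Cer1*, an inhibitor made by anterior visceral endoderm, had 0.714, 99.7 and 0 CPM in controls and 5.18, 3.86 and 0.788 CPM in knockouts, so its log2 fold change of −3.36 came from control 2. The visceral endoderm markers summed to 3590 CPM in control 2 and to 7704 CPM in knockout 1, where *Cer1* was at 5.18 CPM. The relation of *Cer1* to these markers was not tested. In this list 4 genes were higher without control 2 and 2 without knockout 1, and 1 was lower without control 1 or control 3.

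Of 28 BMP pathway genes 21 were tested and 3 were higher, with a list median of 0.30, and all 3 were ligands. Of all tested genes 1.67% were higher, and of those in level classes 1 and 2 5.85%. *Bmp6* and *Bmp7* passed the filter only through the knockouts, so the count and the median describe the tested members alone. *Bmp4*, which comes from extraembryonic ectoderm at this stage and induces germ cells and mesoderm, had 3.21, 3.86 and 3.17 CPM in controls and 22.4, 8.47 and 12.4 CPM in knockouts (log2 fold change 2.08, SE 0.42, adjusted p = 0.36 with edgeR and 0.00236 with DESeq2). *Bmp6* had 0.357, 1.31 and 0 CPM and 3.85, 11.0 and 2.36 CPM, and *Bmp7* had 0.642, 0.219 and 0 CPM and 2.51, 1.02 and 1.71 CPM. The groups did not overlap for any of the 3. The immediate targets of BMP signalling lay on both sides of 0, with *Id1* at −0.21 (adjusted p = 0.947), *Id2* at 0.96 (adjusted p = 0.682) and *Id3* at −0.52 (adjusted p = 0.445). *Id3* passed the unadjusted test, as did the receptor *Bmpr1a* at −0.24 (adjusted p = 0.586). With Y-linked expression as a covariate 1 of the 21 was higher, and 5 were without control 1.

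The extraembryonic ectoderm markers, a list that holds *Bmp4*, *Hand1* and *Esrrb*, had a median log2 fold change of 1.85 over 12 tested members, all above 0, and these 3 were higher. Among all tested genes 1.67% were higher and 51.5% were above 0. In level classes 1 and 2 5.85% were higher, and 925 of 1402 and 913 of 1401 were above 0. *Esrrb*, with 3, 5 and 4 counts in controls and 75, 22 and 18 counts in knockouts, passed the filter only through the knockouts, so the count and the median describe the tested members alone. The summed level of *Eomes*, which is also a streak gene, and *Ddah1* was 208, 272 and 201 CPM in controls and 253, 361 and 206 CPM in knockouts, so the groups overlapped. The other 10 markers summed to 26.1, 20.7 and 11.0 CPM in controls and 86.3, 38.9 and 29.1 CPM in knockouts, with every knockout above every control, and this split was made after the values were seen. Of the 4 markers below the filter *Cdx2*, *Elf5* and *Rhox6* had at most 17 counts in any control, and *Wnt7b* at most 28 there and 52 in any knockout. *Cdx2* had 25, 72 and 1 counts in knockouts, *Rhox6* 37, 35 and 0, and *Elf5* 94, 7 and 4, so that knockout 3 was near the controls. With control 2 and knockout 1 left out, 10 of 12 were above 0, the median was 0.85 and 1 was higher. Without control 1 the number of higher markers was 7 and without knockout 3 it was 8. A few cells of this tissue in a dissected epiblast and more RNA per epiblast cell cannot be told apart in such samples, here or for any list, and the part of extraembryonic cells in the *Bmp4*, *Hand1* and *Esrrb* values was not tested.

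Of 26 FGF pathway genes 24 were tested and 1 was higher (4.17%, against 1.67% of all tested genes), with a list median of 0.29. This gene, *Fgf9*, passed the filter only through the knockouts. *Fgf9*, a ligand of lung, testis and limb mesenchyme, had 0.214, 0.510 and 0.0722 CPM in controls and 0.785, 2.71 and 5.84 CPM in knockouts (adjusted p = 0.458). The ligands that the epiblast itself uses had an unadjusted p above 0.05, with *Fgf5* at 0.09, *Fgf4* at −0.26 and *Fgf8* at 0.73 (adjusted p = 0.923, adjusted p = 0.887 and adjusted p = 0.68). The feedback inhibitors *Spry4* and *Il17rd* passed the unadjusted test, at 0.29 and 0.51. The number of higher FGF genes was 4 without control 1, 3 without control 2 and 2 without control 3 or knockout 2, and 1 was lower without knockout 1.

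Of 19 retinoic acid pathway genes 15 were tested and 2 were higher (13.3%, against 1.67% of all tested genes), with a list median of 0.25. *Crabp1*, a cytoplasmic binding protein of retinoic acid, had 6.56, 5.32 and 4.47 CPM in controls and 25.9, 23.7 and 19.2 CPM in knockouts, with little spread within either group. Its log2 fold change was 2.07 (SE 0.28, adjusted p = 0.184 with edgeR and 4.39e-07 with DESeq2). *Rxrg*, a nuclear receptor partner, had 1.43, 1.89 and 1.08 CPM and 5.26, 3.19 and 3.48 CPM (adjusted p = 0.533). *Crabp2*, the close relative of *Crabp1*, passed the unadjusted test on the other side of 0, at −0.86 (adjusted p = 0.525). The 2 higher genes became 1 without control 1, control 3 or knockout 1.

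Of 49 Wnt pathway genes 45 were in the files and 33 were tested. None of these passed the fold limit with an unadjusted p under 0.05 in either direction by edgeR. Within the limit 4 passed the unadjusted test, *Rspo1*, *Fzd6* and *Tcf7* on the higher side (log2 fold changes of 0.99, 0.64 and 0.40) and *Fzd7* on the lower, and the list median was 0.29. This rested on single epiblasts, since without control 1 4 of 35 genes were higher, without knockout 1 1 of 34 was lower, and the median was −0.02 without control 3 and −0.05 without knockout 1. The receptor *Fzd7*, with 352, 447 and 437 CPM in controls and 294, 299 and 326 CPM in knockouts, passed the unadjusted test without overlap, at a log2 fold change of −0.43 (adjusted p = 0.458), and the co-receptor *Lrp6* was at −0.08 (adjusted p = 0.92). The target genes *Axin2* and *Sp5* were at 0.29 and 0.70 and did not pass it. Of 13 Hedgehog genes 9 were tested, 8 were above 0 and none was higher or lower. *Ptch1*, the receptor and a target of the pathway, passed the unadjusted test with 1703, 1441 and 1416 counts in controls and 1909, 2747 and 2685 counts in knockouts (log2 fold change 0.64, adjusted p = 0.36). So did *Gli2*, an effector, at 0.62 (adjusted p = 0.5), while *Gli1* was at 0.82 (adjusted p = 0.688) and *Smo*, the signal transducer, at 0.31 (adjusted p = 0.683).

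**Figure D5:**
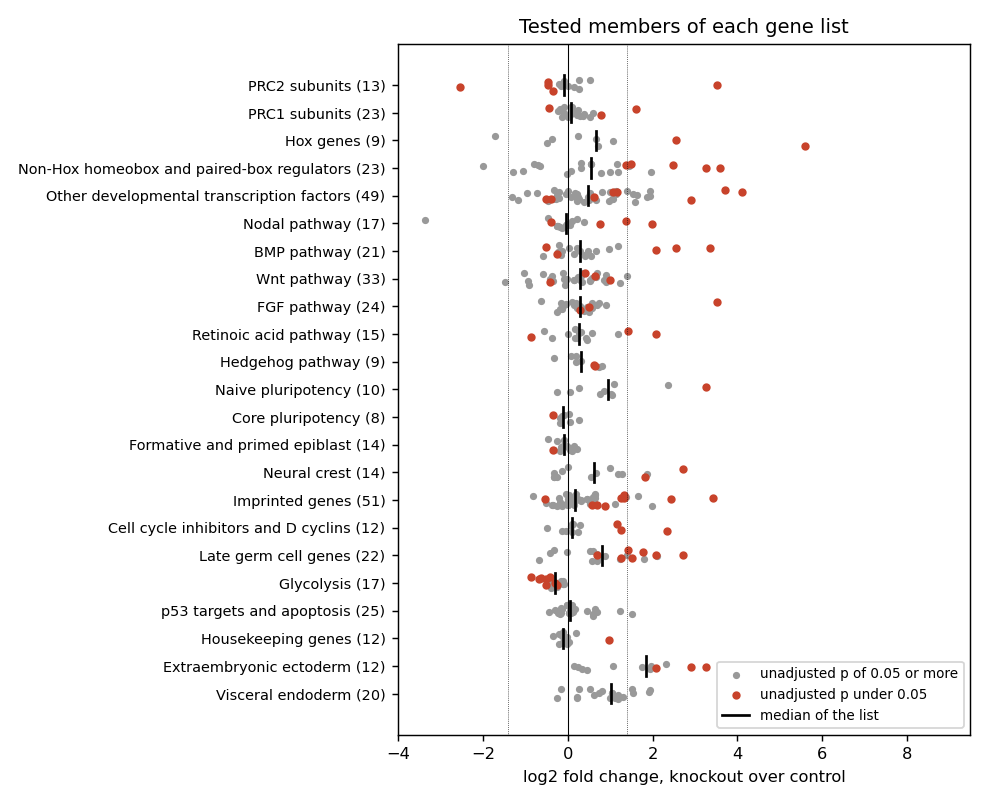
log2 fold change of each tested member of 23 gene lists, with the number tested in brackets, red points for an unadjusted p under 0.05, black bars for the list median and dotted lines at the fold limit of 1.4. Red points beyond the right dotted line occur in most lists of regulators and ligands, Ezh2 is the red point beyond the left line, and all 17 glycolysis genes lie left of 0.

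The genes of the epiblast state itself had small differences. *Pou5f1*, which encodes OCT4, had 350.4, 329 and 400 CPM in controls and 234, 385 and 326 CPM in knockouts (log2 fold change −0.19, SE 0.17, adjusted p = 0.832). *Nanog* had 72.1, 88.2 and 80.8 CPM and 72.1, 105.2 and 73.6 CPM (log2 fold change 0.06, SE 0.17, adjusted p = 0.965). In both the groups overlapped. None of 8 core pluripotency genes passed the fold limit, with log2 fold changes from −0.36 to 0.27, and *Lin28a* and *Trim28* were at −0.09 and 0.02. *Zfp281*, a regulator of the exit from naive pluripotency, passed the unadjusted test at −0.36 (adjusted p = 0.613). None of 14 formative and primed epiblast genes passed the fold limit either, with a range from −0.46 to 0.21. Of these *Otx2*, a factor of the primed state and of the anterior neural plate, passed the unadjusted test at −0.35 (adjusted p = 0.558), and *Dnmt3b*, the main de novo DNA methyltransferase of the epiblast, was at −0.25 (adjusted p = 0.655). *Tet1*, which oxidises methylated cytosine, passed the unadjusted test on the lower side without overlap, at 1034, 952 and 1167 CPM and 695, 684 and 870.4 CPM (log2 fold change −0.49, adjusted p = 0.445).

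Of 12 naive pluripotency genes 10 were tested, 9 of them above 0 with a list median of 0.94, and 1 was higher. *Esrrb* and *Nr5a2* passed the filter only through the knockouts, so these values describe the tested members alone. *Esrrb*, a nuclear receptor of naive cells and of extraembryonic ectoderm, had 0.214, 0.364 and 0.289 CPM in controls and 5.89, 1.49 and 1.18 CPM in knockouts (adjusted p = 0.445). Knockout 1 was well above the other knockouts, and with it left out the list median was 0.08. The number of higher genes was 4 without control 1 and 2 without control 2. *Dppa3*, *Klf4* and *Zfp42* were at 1.03, 1.10 and 0.85 and did not pass the unadjusted test.

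The lists of the early lineages gave no lower gene. Of 15 neuroectoderm genes 6 were tested, and *Zic1* and *Otx1* were higher. This was 33.3%, against 1.67% of all tested genes and 5.85% of those in level classes 1 and 2. Both genes had at most 11 counts in any control and passed the filter only through the knockouts. The share therefore describes the tested members alone. *Otx1*, a partner of *Otx2* in the forebrain, had 0.785, 0.364 and 0.577 CPM in controls and 3.61, 3.797 and 1.38 CPM in knockouts on a retained-intron transcript. Of 19 neural crest genes 14 were tested and 2 were higher (14.3%, against the same 1.67% and 5.85%). *Ret*, the receptor of glial-derived neurotrophic factor, had 1.50, 0.146 and 1.37 CPM and 5.57, 2.78 and 11.6 CPM (adjusted p = 0.46), and *Ngfr*, the low-affinity neurotrophin receptor, had 1.07, 2.33 and 0.289 CPM and 3.53, 4.07 and 5.45 CPM (adjusted p = 0.569). Of 20 primitive streak and mesoderm genes 13 were tested and *Hand1* was higher, and *T*, the classic streak gene, had a log2 fold change of 1.14 (adjusted p = 0.674). Of 10 definitive endoderm genes 8 were tested and none was higher or lower, although *Trh*, a neuropeptide precursor, had 35.2, 37.6 and 46.0 CPM and 64.8, 95.6 and 107 CPM with no overlap and passed the unadjusted test (log2 fold change 1.17, adjusted p = 0.246). These small counts moved with single epiblasts. No neural crest gene was higher without knockout 3, no streak and mesoderm gene without control 3, knockout 1 or knockout 2 but 3 without control 2, and 3 definitive endoderm genes were higher without control 2. Lower genes were 1 of the neuroectoderm without control 1 or knockout 1, and of the definitive endoderm 1 without control 1 and 2 without control 3.

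Of 68 imprinted genes, which are expressed from 1 parental allele, 59 were in the files and 51 were tested. Of these 38 were above 0, with a median of 0.18, and 2 were higher (3.92%). Over all tested genes 51.5% were above 0 and 1.67% were higher. *Sfmbt2*, a Polycomb-related gene expressed from the paternal allele in extraembryonic tissue, had 9.49, 22.1 and 1.80 CPM in controls and 139, 142 and 81.9 CPM in knockouts, a log2 fold change of 3.44 (SE 0.66, adjusted p = 0.36 with edgeR and 0.0294 with DESeq2). The lowest knockout had over 3 times the level of the highest control. The other 6 listed isoforms, which share reads with it and are not independent, summed to a mean of 20.0 CPM in controls and 161.6 CPM in knockouts. *Plagl1*, a zinc finger factor that slows growth, had 1.57, 0.801 and 0.722 CPM and 5.34, 3.86 and 7.68 CPM (adjusted p = 0.445). *Sfmbt2* is among 6 genes whose imprint is known to rest on H3K27me3 of the maternal allele. 5 of the 6 were analysed here and lay above 0, with *Slc38a4*, which passed the unadjusted test, at 0.56 (adjusted p = 0.507), *Smoc1* at 0.58 (adjusted p = 0.693), *Gab1* at 0.64 (adjusted p = 0.795) and *Jade1* at 0.06 (adjusted p = 0.952). The parental alleles were not separated in these counts. Without overlap but under the fold limit, *Magel2*, *Phlda2*, *Cdkn1c*, *Ndn* and *Zdbf2* were at 1.33, 1.33, 1.26, 0.89 and 0.68, each with an unadjusted p under 0.05. The median of the whole list rested on knockout 1, and without it the median was −0.0041, with 26 of 52 above 0. The 2 higher genes became 10 without control 2, 6 without control 1, 5 without knockout 2 or knockout 3 and 4 without control 3.

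Of 15 cell cycle inhibitors, D cyclins and their kinases 12 were tested and 1 was higher, or 2 without control 3. *Ccnd2*, a D cyclin that drives entry into the cycle, had 28.8, 26.4 and 8.66 CPM in controls and 127, 102 and 92.4 CPM in knockouts (log2 fold change 2.33, SE 0.38, adjusted p = 0.246 with edgeR and 0.00329 with DESeq2). *Ccnd1* and *Ccnd3* were at 0.09 and 0.07. The kinase partner *Cdk6* passed the unadjusted test at 1.17 (adjusted p = 0.36). Of the inhibitors *Cdkn1c*, which is imprinted, passed it without overlap at 1.26 (adjusted p = 0.445), and *Cdkn1a* was at 0.10 (adjusted p = 0.972). Of 27 p53 targets and apoptosis genes 25 were tested. None had an unadjusted p under 0.05 with edgeR, although 1 was higher without control 2 or knockout 3, and *Trp53* itself was at −0.02 and *Zmat3* at 0.03.

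Of 25 late germ cell genes 22 were tested, 5 were higher, against 1.67% of all tested genes, and 18 were above 0, against 51.5%, with a median of 0.80. Among weakly expressed genes both shares were larger. In level classes 1 and 2 5.85% of tested genes were higher, and 925 of 1402 and 913 of 1401 were above 0. *Tex11*, *Taf7l* and *Tex101* passed the filter only through the knockouts, so the counts and the median describe the tested members alone. *Mael*, a piRNA pathway protein of nuage, had 12.1, 7.43 and 7.505 CPM in controls and 24.3, 25.1 and 28.2 CPM in knockouts (log2 fold change 1.52, SE 0.28, adjusted p = 0.308 with edgeR and 0.000469 with DESeq2). *Slc25a31*, the germ cell ADP/ATP carrier, had 3.78, 2.55 and 2.81 CPM and 16.7, 5.22 and 9.19 CPM. *Sycp2*, of the meiotic chromosome axis, had 2.71, 1.24 and 1.80 CPM and 6.52, 4.00 and 4.99 CPM. The remaining 2, *Tex11* and *Taf7l*, are X-linked, and *Tex11*, a meiotic crossover factor, had 1.14, 0.583 and 1.88 CPM and 7.30, 11.7 and 4.66 CPM. In each of the 5 the groups did not overlap, nor in *Tex101*, at 0.856, 0 and 0 CPM and 1.18, 1.02 and 1.58 CPM (adjusted p = 0.721). *Tex15*, a gene of meiosis and transposon silencing that was not on the list and is named from the per-embryo rule, had 11.8, 17.1 and 27.5 CPM and 57.1, 54.9 and 70.0 CPM (adjusted p = 5.52e-06 with DESeq2). With knockout 1 left out 2 of 23 were higher, and with Y-linked expression as a covariate 5 of 22 were. Of 10 genes of primordial germ cell specification 8 were tested and none was higher or lower, although 1 was higher without control 1 or knockout 3, and *Ifitm3* passed the unadjusted test at 0.59 (adjusted p = 0.507). Of 8 genes of the H3K9 methyltransferases and their partners none was higher or lower, while 2 passed the unadjusted test, *Wiz* at 0.63 (adjusted p = 0.437) and *Setdb1* at −0.35 (adjusted p = 0.507).

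Glycolysis genes lay on the lower side, by small amounts. All 17 tested members were below 0 and 8 had an unadjusted p under 0.05, against 3.63% of all tested genes, while none reached the fold limit. The median log2 fold change was −0.31, against a median of −0.08 for class 10, the genes with the highest level. Summed over the 17 genes, the level was 11580 to 14060 CPM in controls and 10240 to 10850 CPM in knockouts, with no overlap. *Pgk1*, phosphoglycerate kinase, had 1763, 1666 and 1083 CPM in controls and 854, 904 and 722 CPM in knockouts (log2 fold change −0.86, SE 0.18, adjusted p = 0.36). *Slc2a1*, the glucose transporter GLUT1, passed the unadjusted test at −0.67 (adjusted p = 0.246), as did *Slc16a3*, a lactate exporter, at −0.62 (adjusted p = 0.437), and *Pgam1* at −0.42 (adjusted p = 0.458). *Ldha*, the last step to lactate, was at −0.08 (adjusted p = 0.882). *Pgk1* is X-linked. With Y-linked expression as a covariate all 17 remained below 0 and 5 had an unadjusted p under 0.05, and with control 2 and knockout 1 left out 15 of 17 were below 0 and 4 had one.

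Other abundant gene families lay near 0 or slightly below. The median log2 fold change was −0.10 for 81 cytoplasmic ribosomal protein genes, −0.06 for 75 mitochondrial ribosomal protein genes, −0.05 for 46 complex I genes, −0.13 for 39 proteasome genes and −0.16 for 9 *Mcm* genes, which include the subunits of the replicative helicase. Clustered and other protocadherins, which give neurons their surface identity, had a median of 1.09 over 21 tested members, 10 of them with an unadjusted p under 0.05 and a positive change, against 4.34% of all tested genes. Of these 10 9 are of the gamma cluster, whose members share their last exons and so their reads, and they are not independent measurements. Their log2 fold changes ran from 1.09 to 1.24, with 9.31 to 17.0 CPM in controls and 21.3 to 44.5 CPM in knockouts. The 6 tested members of the alpha cluster share reads likewise, and *Pcdhac2* alone passed the fold limit, at 1.94 (adjusted p = 0.5). 3 of 45 potassium channel genes were higher (*Kcnh1*, *Kcnq5* and *Kcnab3*) and 1 lower (*Kcnh4*), against 1.67% and 0.293% of all tested genes. Of 361 tested zinc finger genes named Zfp 2 were higher (0.554%).

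Protein-coding genes made up 224 of the 234 higher and 34 of the 41 lower genes, and the share of higher genes was 1.67% among protein-coding genes and 1.58% among the 632 tested genes of other types. 4 of 113 antisense genes were higher. Whether counting used strand is not given in the sources used here, so reads of an antisense gene and its partner may not be separated. By chromosome, 19 of 528 tested X-linked genes were higher (3.60%), against 215 of 13471 autosomal genes (1.60%). They include *Tex11*, *Taf7l*, *AU022751*, *AU015836*, *Xlr3b*, *Nexmif* and *Morc4*, most of them named after their values were seen. The groups did not overlap in 12 of the 19, and in 213 of all 234 higher genes. By non-overlap with the fold limit, whatever the p, 13 of 528 X-linked and 240 of 13471 autosomal genes were higher, a smaller difference. Control 2, the one control with Y-linked expression, lay below every knockout in 15 of these 19 genes and in 221 of all 234 higher genes. Since only 1 control has Y-linked expression, the part of that imbalance in the X-linked share was not tested. *AU022751* had 0.927, 5.25 and 0.938 CPM in controls and 18.3, 15.3 and 15.5 CPM in knockouts, with control 2 between the other controls and the knockouts.

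11 genes had no counts in any control and at least 3 counts in every knockout, and 5 genes the reverse. Besides *Nlrp6* and *Pdx1*, the first group held *Gdf6*, a BMP family ligand of joints and retina, with 10, 7 and 35 counts in knockouts (at least 17-fold higher), and *Wnt9b*, a ligand of kidney and facial development, with 5, 4 and 4 counts (at least 4.45-fold higher). The others were *Abcg4*, *Oxct2b*, *1700001O22Rik*, *2810032G03Rik*, *C330018A13Rik*, *Gm14735* and *Gm16148*. The 5 genes listed in every control and in no knockout were *Nat1*, an arylamine acetyltransferase with 16, 7 and 6 counts in controls (at least 9.53-fold lower in knockouts), *Slc5a4b*, *Kcnmb2*, *1700028J19Rik* and *Gm14427*, with 3 to 11 counts in the last 4.

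The 12 largest decreases were *Gm14021*, *Zap70*, *4930550C14Rik*, *Zkscan14*, *Ccdc33*, *Qrfp*, *Ezh2*, *Dnah5*, *Evi2a*, *Tmub1*, the short *Arhgap26* transcript and *Scrt2*, and apart from *Ezh2* each had under 5 CPM in every epiblast. *Gm14021* is a processed pseudogene, whose counts may include reads of its parent gene. *Zap70*, a kinase of T cell receptor signalling, had 1.36, 1.24 and 3.10 CPM in controls and 0.235, 0 and 0.131 CPM in knockouts. *Zkscan14*, a zinc finger gene, had 4.71, 0.874 and 2.24 CPM and 0.393, 0.0678 and 0.197 CPM. *Dnah5*, a dynein of motile cilia, had 1.43, 0.874 and 0.866 CPM and 0.157, 0.136 and 0.263 CPM, and *Scrt2*, a neuronal repressor, 2.21, 2.99 and 1.37 CPM and 0.785, 0.136 and 0.394 CPM. In each of these 4 the groups did not overlap, and no adjusted p was under 0.445. Housekeeping genes had a median of −0.11 over 12, with *Actb* at −0.20, *Ywhaz* at −0.01 and *B2m*, a subunit of MHC class I molecules, which passed the unadjusted test, at 0.96 (adjusted p = 0.445). Among immediate early genes, which dissection can induce, *Egr1* had 28, 123 and 94 counts in controls and 273, 1003 and 85 counts in knockouts, highest in knockout 2, and the groups overlapped.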

How the data were processed

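RNA-seq counts of 6 single E6.25 epiblasts were analysed, 3 controls and 3 *Ezh2* knockouts, grouped by their labels. The authors amplified the RNA (Ovation RNA-seq System V2), removed adapters, cut the reads to 40 nt, mapped them to GRCm38 with Tophat2 and counted them on each Ensembl release 74 transcript with HTSeq-count. The processing notes of the submitters also name Bowtie and give no versions. The counts that the authors deposited were not normalised, list transcripts with at least 1 count, and give reads shared by isoforms to each of them. Unlisted transcripts were set to 0. The files of the *Ehmt2* cross and of the other assays were not used here.

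Of 69525 listed transcripts 67200 (96.7%) were matched by identifier to GENCODE vM21 on GRCm38, and the rest held 2.44% of counts. Per gene the transcript with the highest mean count was kept (20568 genes). edgeR 4.0.16 in R 4.3.3 was used with filterByExpr by genotype, TMM factors (0.977 to 1.03), glmQLFit and glmQLFTest with no covariate. p-values were adjusted by Benjamini-Hochberg over 14014 genes, and a standard error is the log2 fold change over the root of F. Fitted fold changes use a prior count of 0.125. DESeq2 1.42.0 (Wald test, no independent or Cook's filtering) was an alternative. Totals were 30161171 to 37500157 counts over all transcripts and 12495547 to 15160096 over 1 transcript per gene, where 1 count is about 0.07 CPM, and bounds on folds use a floor of 3 counts over a group, which covers counting error only. No pair of replicates agreed within sampling noise (chi-square per degree of freedom 24.1 to 44.4 within groups). The code was tested on simulated data. Other tools were matplotlib 3.10.9, scipy 1.17.1, numpy 2.4.6, pandas 2.3.3 and Python 3.11.15.

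The comparison, its gene lists and the families were chosen with earlier results of these data known. Genes named are *Ezh2*, genes that the study names for this cross, the 12 largest differences in each direction without overlap and with at least 1 CPM in the higher group, and of each list the members without overlap beyond a log2 fold change of 1.4 or else those with the highest level. Other members are named for an unadjusted p under 0.05 or their place in a pathway, after their values were seen. *Xist*, *Tsix*, *Ftx* and *Jpx* were not analysed here, and a few genes that these rules would name are not reported here. Alternatives were other size factors, DESeq2, other filters, all transcripts, a replicate block, leaving out each epiblast, other fold and level limits and, added after seeing the data, 2 covariates and the removal of control 2 with knockout 1.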

Additional observations from a re-analysis of the deposited data

How the results depend on the processing

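The *Ezh2* log2 fold change stayed negative under every alternative run. It passed an adjusted p of 0.05 with DESeq2 (−2.54), without a filter (−2.55), with all transcripts (−2.52), with the replicate block (−2.49) and without control 2 and knockout 1 together (−2.55), and leaving out 1 epiblast at a time moved it from −2.76 to −2.19. With 1 epiblast left out, 0 to 7 genes were higher at an adjusted p, the 7 without control 2 including *AU022751*, *Rhox5* and 4 Y-linked genes, *Ddx3y*, *Eif2s3y*, *Kdm5d* and *Uty*, and 0 to 1 were lower. In the same order the unadjusted counts were 241 to 522 higher and 51 to 103 lower, the per-embryo counts 18 to 50 and 3 to 10, and the counts without overlap 380 to 635 and 107 to 194. DESeq2 gave 46 higher and 2 lower at an adjusted p. Without a filter 1 gene was lower at an adjusted p, 460 were higher and 140 lower at an unadjusted p, and 458 and 165 lay without overlap. All transcripts gave 6 lower at an adjusted p (1 gene), 758 higher (429 genes) and 190 lower (118 genes) at an unadjusted p, 19 lower by the per-embryo rule, and 723 (418 genes) and 209 (135 genes) without overlap. A log2 fold limit of 1 gave 357 higher and 66 lower, and no limit 608 and 509. A normalised count of 5 in place of the level limit gave 107 and 18 by the per-embryo rule. Without control 2 and knockout 1 the counts were 8 higher and 1 lower at an adjusted p, 77 lower at an unadjusted p, 54 and 20 by the per-embryo rule, and 515 and 226 without overlap. Fewer epiblasts make non-overlap easier to reach, and the causes of the other changes were not tested.

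The replicate numbers were not taken as pairs, since deviations of same-numbered epiblasts correlated at 0.057, −0.17 and 0.21, not above 0.1 in every pair. Which epiblasts shared a litter is not given. As a block they gave 1 gene lower at an adjusted p, *Ezh2*, 269 genes higher (196 shared with the fit without the block) and 32 lower at an unadjusted p. Of 37 lists the block moved the number of higher members by over 1.5 times or from 0 in 10, to 5 for extraembryonic ectoderm and for other developmental factors, 4 for Y-linked genes, 2 for the Nodal and naive lists and 1 for the H3K27 demethylase, definitive endoderm, visceral endoderm, decidua and germ cell specification lists, and the definitive endoderm median went from −0.48 to 0.55. Leaving out 1 epiblast moved that number likewise in 27 of the 37. The per-embryo rule could not be fitted with the block or the covariates. Of 1318 values of 88 single genes other than *Ezh2*, 0 changed direction past a threshold, 12 moved and 30 became significant, and of 555 list medians 37 moved beyond the spread. Depth limits the genes under about 10 counts, which hold 138 of the 234 higher genes.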

Other observations

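Other genes outside the lists were higher at an unadjusted p, and those given here were picked after their values were seen. Among class I MHC genes and related ligands of natural killer cell receptors were *H2-Q5* and *Raet1e*. *H2-Q5*, annotated as a polymorphic pseudogene and measured on a retained-intron transcript, had 30, 17 and 22 counts in controls and 71, 104 and 165 in knockouts. *Raet1e* had 55, 25 and 16 counts in controls and 98, 111 and 133 in knockouts. Metabotropic glutamate receptor 6, *Grm6*, which acts in retinal bipolar cells, had 36, 41 and 48 counts in controls and 178, 139 and 297 counts in knockouts. Trophoblast-associated *Plet1* had 20, 42 and 12 counts in controls and 184, 95 and 112 counts in knockouts, with no overlap in any of these genes.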
